A study of Homo sapiens with 8 samples.

Results

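The regions described here are stretches of the genome centred between protein-coding genes. They carried H3K27ac peaks in cells treated with all-trans retinoic acid (ATRA) and none in vehicle-treated cells. The peaks of the 4 H3K27ac libraries were merged into 53141 regions. A region was counted as gained when it overlapped a peak in both ATRA libraries and in neither control library, and it was retained when its centre lay more than 2 kb from every annotated transcription start site (TSS) and outside every protein-coding gene body. Of all merged regions, 4288 were gained (8.07%), 3167 of these had a centre distal to every TSS, and 1472 also had it outside protein-coding genes. Edges were not filtered, and 47 of the gained distal intergenic regions overlapped a protein-coding gene body at an edge. The 1472 regions were compared with 213 distal intergenic regions lost by the mirrored rule and with 1461 kept ones, which had a peak in all 4 libraries. The regions were thus selected on the presence of H3K27ac peaks, and H3K27ac presence and length are given as a description only.

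The samples were HL-60 cells, an established human cell line labelled as derived from acute promyelocytic leukemia, and no other line was used. Cells were treated with 1 µM ATRA in ethanol for 4 days or with the same amount of ethanol (control). Chromatin immunoprecipitation with sequencing (ChIP-seq) was performed for H3K27ac and H3K4me3, with 2 replicates for each mark and condition, giving 8 libraries. The files hold peak positions per library, so the sequencing depth is unknown and no read level can be given. The labels give replicate numbers without saying whether the cultures were separate, and exact p-values measure only the spread between these libraries.

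H3K27ac is the acetylation of lysine 27 of histone H3 and marks active enhancers and promoters, while H3K4me3 is concentrated at the starts of active or poised genes. An acetylated region far from any TSS is therefore a candidate enhancer, and clusters of such regions often surround genes of cell identity. ATRA binds the retinoic acid receptors, which act with RXR at paired AGGTCA-like letters, and drives HL-60 cells towards granulocyte-like cells, a program in which PU.1, C/EBP, RUNX and AP-1 factors take part.

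The following sequences show what such regions look like. For each of 4 factors, 120 bases are printed around the first match in the longest gained region whose central 300 bases held the letters, on the plus strand of hg19, with the match in capitals. The PU.1 letters are GAGGAAGT, the RUNX letters TGTGGTT, the C/EBP letters TTGCNNAA and the AP-1 letters TGANTCA, searched on both strands. The regions lie nearest to OLFM4 (chr13:53589574-53589693), RNF149 (chr2:101945491-101945610), MYLK4 (chr6:2535489-2535608) and UPB1 (chr22:24863519-24863638).
PU.1 letters, OLFM4 region: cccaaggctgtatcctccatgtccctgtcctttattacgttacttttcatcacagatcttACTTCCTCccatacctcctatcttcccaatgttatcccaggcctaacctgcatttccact
RUNX letters, RNF149 region: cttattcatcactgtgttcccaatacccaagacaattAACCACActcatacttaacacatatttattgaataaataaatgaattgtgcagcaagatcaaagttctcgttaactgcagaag
C/EBP letters, MYLK4 region: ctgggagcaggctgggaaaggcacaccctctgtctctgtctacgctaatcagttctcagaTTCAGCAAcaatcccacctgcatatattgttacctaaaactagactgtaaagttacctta
AP-1 letters, UPB1 region: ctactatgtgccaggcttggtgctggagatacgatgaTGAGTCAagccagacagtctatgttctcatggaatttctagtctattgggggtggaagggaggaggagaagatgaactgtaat

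The libraries differed in how much was called. H3K27ac peaks covered 64.8 and 86.1 Mb in the ATRA libraries and 28.8 and 54 Mb in the control libraries, and H3K4me3 peaks covered between 47.7 Mb (control replicate 2) and 63.2 Mb. The excess of gained over lost regions moved with this difference in called length, and its part in the counts was not tested. The paper's text orders the conditions the other way by number of peaks, for H3K27ac and for H3K4me3. Each value for ATRA and control below, of either mark, therefore rests on the labels of the deposited libraries. At ITGAM, whose product is the usual surface marker of ATRA-treated HL-60 cells, the 4001 bp around the gene start had 3451 and 2608 bp under H3K27ac peaks in the libraries labelled ATRA and 0 bp in those labelled control, and H3K4me3 was also longer with ATRA (3101 and 2045 bp against 1004 and 534 bp). In at least 1 library, H3K4me3 peaks stood at the starts of 5 of 6 myeloid marker genes (MPO, SPI1, CD33, AZU1 and CEBPA, not ELANE). They stood at 0 of 4 T cell, 0 of 4 epithelial and 0 of 3 hepatocyte markers, at CD79A among 4 B cell markers and at KLF1 among 4 erythroid markers. Of the myeloid markers, 4 and 5 had a peak in ATRA replicates 1 and 2, and 5 and 4 in control replicates 1 and 2. CD79A had none in control replicate 2.

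Of the 16941 merged regions that were distal and intergenic, 1472 were gained (8.69%) and 213 were lost (1.26%). The balance depended on the libraries set against each other. ATRA replicate 1 against control replicate 2 gave 4096 gained and 5239 lost regions, so there the order turned, while the other 3 combinations gave 5236 to 10211 gained and 760 to 3646 lost. How far this class carries over between replicates can be read from libraries that did not choose it. Among 5236 distal intergenic regions with a peak in ATRA but not control replicate 1, 61.8% had a peak in ATRA replicate 2 and 25.4% in control replicate 2. The 760 regions lost in replicate 1 ran the other way, with 29.5% in ATRA and 65% in control replicate 2. All 7752 regions called in the replicate 1 libraries were at 65.2% and 44.1%. In the other direction, 7794 regions gained in replicate 2 had a peak in 25.5% of cases in ATRA replicate 1 and 1.46% in control replicate 1, against 30.9% and 13.8% of all 15363 regions called in the replicate 2 libraries. The 3646 regions lost in replicate 2 had a peak in 6.75% of cases in ATRA replicate 1 and 9.43% in control replicate 1. A region gained in 1 pair of libraries was thus called more often in the other ATRA than in the other control library, in both directions. The same order held for all regions, whose share in the other ATRA library was higher than that of gained regions. The count itself rests on which libraries are required: it was 3905 without ATRA replicate 2, 7680 without ATRA replicate 1, 2493 without control replicate 2 and 1531 without control replicate 1.

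The gained regions were short and most were single peaks. The merged length had a median of 2154 bp and ranged from 229 to 33109 bp, and the middle 50% lay between 1291.5 and 3603.5 bp. In ATRA replicate 1 the median length under peaks was 1129.5 bp, and in ATRA replicate 2 it was 1657.5 bp. In 1278 of the 1472 regions each ATRA library had exactly 1 peak, and in 27 at least 1 library had 3 or more. The stretch under peaks of both ATRA libraries was 748.5 bp at the median, and it made up at least 50% of the merged length in 544 regions (37%). Replicate 2 had the longer stretch in 937 regions and replicate 1 in 533. Lost regions were about as long as gained ones (median 2100 bp), and kept regions were longer (6336 bp).

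**Figure D1:**
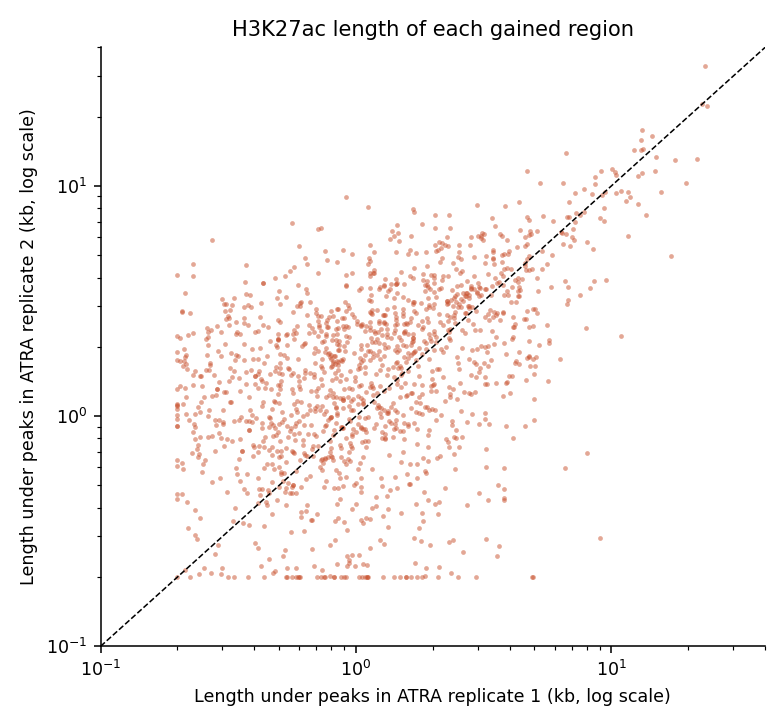
Length under H3K27ac peaks of each of the 1472 gained regions in ATRA replicate 1 (x axis) and replicate 2 (y axis), in kb on log axes, with 1 point per region and the line of equal length dashed. The points spread widely around the line, and more lie above it (937) than below it (533).

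By the stretch shared between the ATRA libraries, the longest region, chr6:2518959-2552067, spanned 33109 bp, with 23282 bp under peaks in ATRA replicate 1 and 33109 bp in replicate 2, and its nearest protein-coding TSS was that of MYLK4, 208869 bp away. Its neighbour at chr6:2484646-2510506, in the noncoding gene GMDS-DT, had 23663 and 22271 bp. On chromosome 10, the region chr10:32235183-32257875 upstream of ARHGAP12 had 22686 and 22646 bp and was followed by another long one at chr10:32260587-32275503 (14917 and 13345 bp). A region 32003 bp downstream of the HLX start had 13296 and 14414 bp, where HLX is a homeobox factor of hematopoiesis. A pair upstream of TLE3, a corepressor, had 21739 and 13120 bp at 162371 bp and 17816 and 12986 bp at 17058 bp. The other 3 of the 10 longest were nearest to UPB1, HIVEP2 and LAMB3. So the long end of the distribution held neighbouring regions, on chromosomes 6, 10 and 15, rather than 10 separate loci. In all, 186 regions (12.6%) reached 5 kb and 41 reached 10 kb. Distances run from region centres, so a long region can itself reach over a start. The LAMB3 region spanned 17587 bp with its centre 3663 bp from the start. The centre of the longest region was 6614 bp from the nearest TSS of any gene, within its 33109 bp.

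The median distance from the centre of a gained region to the nearest protein-coding TSS was 32878 bp, compared with 47118 bp for lost, 30637 bp for kept and 41134 bp for all distal intergenic regions. Gained regions lay within 10 kb in 20.1% of cases and beyond 100 kb in 24.7% (364 regions), and 39 were beyond 500 kb. They lay upstream of the nearest gene in 63.9% of cases, the same share as for kept regions. Within a long noncoding RNA gene body lay 407 (27.6%), against 25.4% of kept regions. The 3 farthest regions were 2154141 bp from AGA, 1643190 bp from GPC5 and 1461524 bp from NCAM2. At the threshold of 2 kb, the nearest members had centres 2010, 2015 and 2023 bp from a start, near KLHDC9, TFCP2L1 and LYST. The nearest regions left out were at 1998 bp from a noncoding start (28523 bp from ANXA3), 1998 bp from SLC29A3 and 1996 bp from IL17RE.

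Part of the gained regions lay in tight groups, although the median gap to the nearest other gained region was 81.3 kb. When neighbouring regions were stitched, with a largest gap of 12387 bp and a median gap of 2610 bp inside clusters, 430 of the 1472 (29.2%) fell into 183 clusters of at least 2, and 41 clusters had 3 or more. Kept regions, nearly equal in number, were clustered in 20.1% of cases and the 213 lost regions in 5.63%, a share that also falls with their smaller number. A kept region lay within 12495 bp of 448 gained regions (30.4%), and 377 (25.6%) had none within 100 kb. By chromosome, gained regions were densest on chromosome 20, at 1.32 per Mb against 0.485 per Mb over all chromosomes and 0.225 on X, and kept regions were also densest there (0.968 per Mb).

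The 5 clusters with most members lay in known loci. At chr9:107901706-107944458, 7 regions upstream of SLC44A1, a choline transporter gene, had 7872 and 7996 bp under peaks in ATRA replicates 1 and 2. At chr1:53024279-53061168, 7 regions near GPX7 and TUT4 had 25215 and 21366 bp. On chromosome 20, 5 regions at chr20:48816395-48850812 lay downstream of CEBPB (9098 and 4160 bp), and 5 at chr20:49049595-49077404 upstream of PTPN1, a tyrosine phosphatase gene (5621 and 16285 bp). At chr1:25301001-25333370, 5 regions lay upstream of RUNX3 (19434 and 10910 bp). The 2 ATRA libraries were close at SLC44A1 and GPX7 and furthest apart at PTPN1.

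Stitched at 50 kb, the regions between CEBPB and PTPN1 joined into a single stretch of 261 kb with 18 members, the largest in the genome. It was not free of H3K27ac in control cells: 5757 and 14630 bp lay under control peaks between the members, including 4 kept regions. CEBPB encodes C/EBPβ, a factor of granulocyte and monocyte differentiation, and all 9 regions nearest to it were downstream, from 9.4 to 126.1 kb. The longest, chr20:48907435-48917035 in LINC01270, had 8365 bp in ATRA replicate 1 and 9266 bp in replicate 2, and the nearest, chr20:48816395-48817191, had 234 and 797 bp. H3K4me3 at the CEBPB start, in the 4001 bp centred on it, was 3078 and 3176 bp in ATRA against 3277 and 2572 bp in control libraries, so the groups overlapped.

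**Figure D2:**
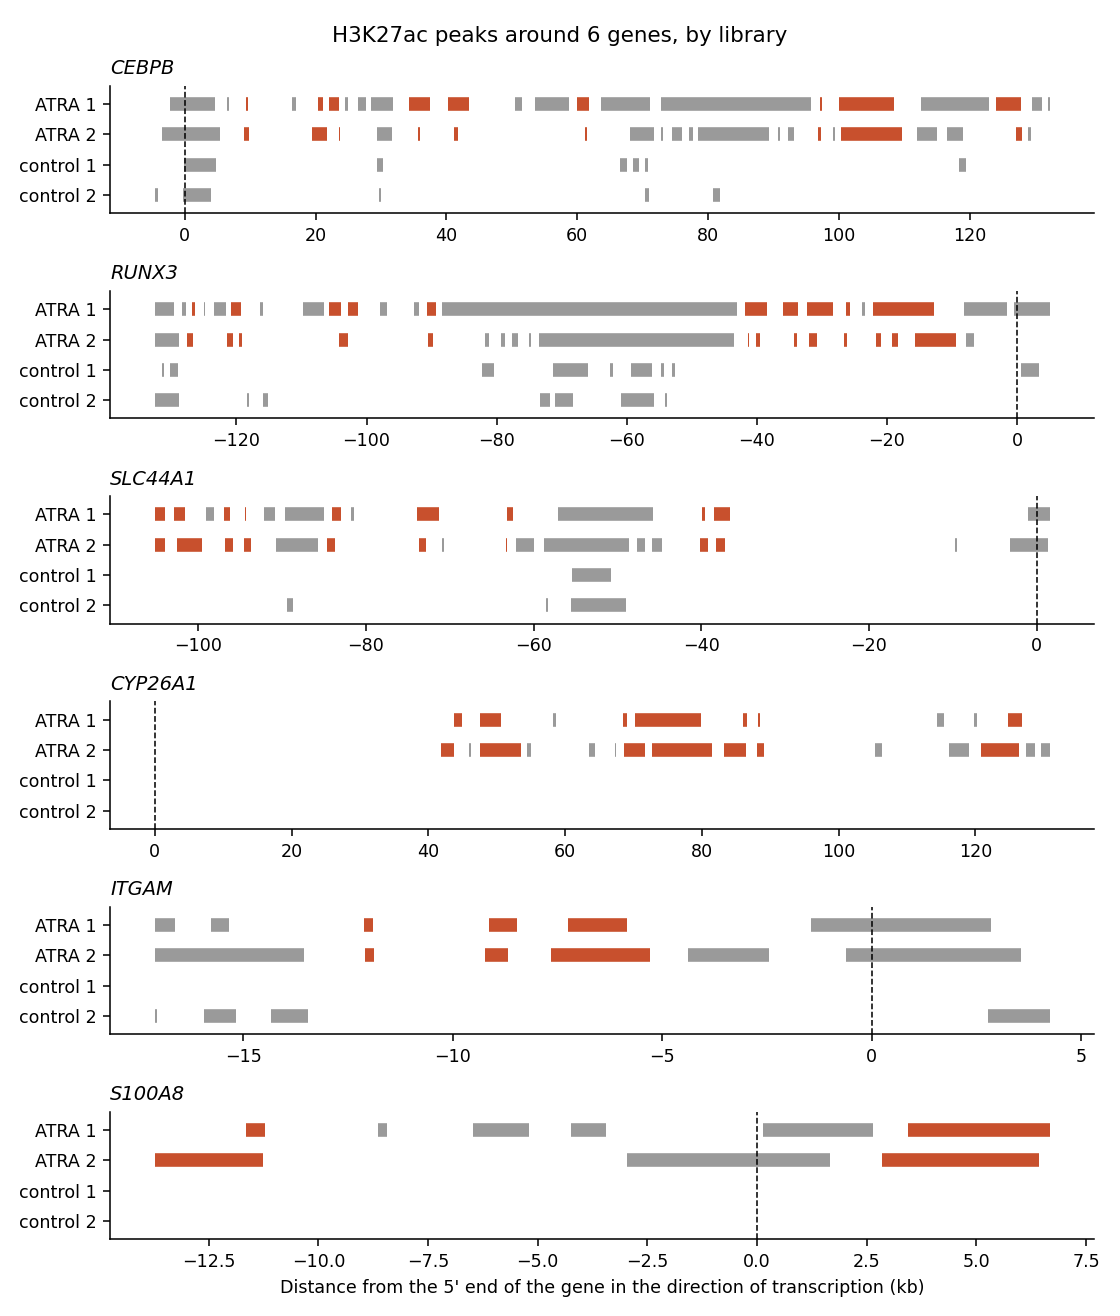
H3K27ac peaks of the 4 libraries around 6 genes, with distance from the 5′ end of each gene in kb in the direction of transcription, bars in color for peaks within gained distal intergenic regions and in gray for all other peaks. Around CYP26A1 and S100A8 the control libraries show no peak in the window drawn, and around CEBPB, RUNX3 and SLC44A1 they have peaks between the gained regions.

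RUNX3, a myeloid and lymphoid transcription factor, also had 9 regions, all upstream, from 15.8 to 126.9 kb. They summed to 26179 bp in ATRA replicate 1 and 15473 bp in replicate 2. The largest, chr1:25301001-25313797, had 9335 and 8059 bp, and H3K4me3 covered 824 and 374 bp of it in ATRA and none in control libraries. No library had H3K4me3 at the 5′ end of RUNX3, and other starts of the gene were not examined. CADM1, an adhesion molecule gene, had 9 regions between 45.7 and 411.2 kb upstream (14111 and 15875 bp), with no peak of either mark at its start in any library. At SLC44A1, the H3K4me3 at the start was longer with ATRA, 4001 and 3720 bp against 3044 and 2786 bp.

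The regions' nearest protein-coding genes numbered 1029 of 20090 (5.12%), of which 789 had 1 region and 28 had at least 5. Nearness to a TSS does not show which gene a region acts on. When each region was assigned instead to the nearest gene with H3K4me3 at its start in both ATRA libraries, 810 regions (55%) kept their gene, and 579 regions lay nearest to a gene without H3K4me3 in any library.

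Lists of myeloid genes were read against the 5.12% of all protein-coding genes nearest to a gained region and the 5.56% nearest to a kept one. Of 11 KLF genes, zinc finger factors of differentiation, 6 were nearest to a region (54.5%): KLF6, KLF13, KLF7, KLF4, KLF3 and KLF5. KLF4 was also nearest to a lost region. KLF6 had 5 regions 43.9 to 90.3 kb upstream, with 9822 and 14429 bp in ATRA replicates 1 and 2. The H3K4me3 at its start was 3942 and 3962 bp with ATRA and 3428 and 3099 bp in control cells. Of 4 RUNX genes RUNX3 and RUNX2 were nearest, of 6 C/EBP genes CEBPB, of 10 ETS genes ELK3 and ETS1, and of 15 AP-1 genes 4, among them FOS, BATF and BATF3. FOS had 3 regions, within 23.4 kb, of 4613 and 3960 bp. Kept regions were nearest to 3 KLF, 1 RUNX, 3 C/EBP, 2 ETS and 5 AP-1 genes, so several of these families stood next to kept regions as well. When gained regions were assigned to the nearest gene with H3K4me3 at its 5′ end, they fell to 4 KLF, 0 RUNX, 1 C/EBP, 2 ETS and 3 AP-1 genes. RUNX3 and RUNX2 had no H3K4me3 at the 5′ end in any library and so could not be assigned this way, whatever their other starts carry. Of 15 stem and progenitor factors GFI1 was nearest to a gained region (6.67%, near the share of all genes), with 2 regions and H3K4me3 over all 4001 bp of its start in all 4 libraries, and GATA2 was nearest to a lost one.

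Lists of receptors and signaling genes of mature myeloid cells varied. Fc receptors were at 0 of 10 and chemoattractant receptors at 1 of 16 (CCR3, 6.25%), near the share of all genes. Kept regions were nearest to 4 integrin and adhesion, 1 innate pattern receptor, 5 cytokine receptor and 6 chemokine and cytokine genes, as many as gained regions or more in 3 of these 4 lists. Of 16 integrin and adhesion genes, ITGAM, CD44, CEACAM3 and ITGAX were nearest to a region (PECAM1 was not found by name). ITGAM, which encodes the integrin chain CD11b, had 3 regions from 6.5 to 12 kb upstream, and the largest, chr16:31263627-31266002, had 1421 bp in ATRA replicate 1 and 2376 bp in replicate 2. H3K4me3 at the ITGAM start, given above, did not overlap between the groups. Of 14 innate pattern receptor genes, CLEC7A (Dectin-1), CLEC4E (Mincle) and NLRP3 were nearest. H3K4me3 was longer in both ATRA libraries at all 3 starts, and at 11.3% of all protein-coding genes. At CLEC7A it was 2037 and 331 bp against 200 and 0 bp. At NLRP3 it was 3975 and 3221 bp against 2267 and 3089 bp, a narrow separation, and at CLEC4E it was 2295 and 257 bp against none. Of 17 cytokine receptor genes 5 were nearest (KIT, IL10RA, IFNGR2, IL6R and TNFRSF1B). KIT, the receptor of stem cell factor, had 3 regions of 4715 and 10144 bp in sum, and its H3K4me3 did not separate the groups (2364 and 1190 bp against 2873 and 819 bp).

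Of 15 chemokine and cytokine genes, CCL2, CXCL8, CCL4 and IL1B were nearest to a region (26.7%). CCL2 encodes the monocyte attractant MCP-1. Its region at chr17:32544951-32554072, 32.8 kb upstream, had 7805 and 7705 bp, and H3K4me3 at its start was 4001 and 2754 bp in ATRA libraries and absent from both control libraries. CXCL8, the neutrophil attractant interleukin 8, had a region 22.3 kb downstream of 3126 and 6240 bp, with H3K4me3 of 2903 and 2799 bp against 2240 and 2361 bp. S100A8, which encodes a calcium-binding protein of neutrophils, was the only 1 of 8 S100 genes. Its regions at chr1:153356879-153360705 and chr1:153374762-153377279 had 3660 bp in ATRA replicate 1 and 6051 bp in replicate 2 in sum, and its start had 3590 and 1715 bp of H3K4me3 with ATRA and none in control cells. SRC and LYN were 2 of 8 SRC family kinase genes.

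**Figure D3:**
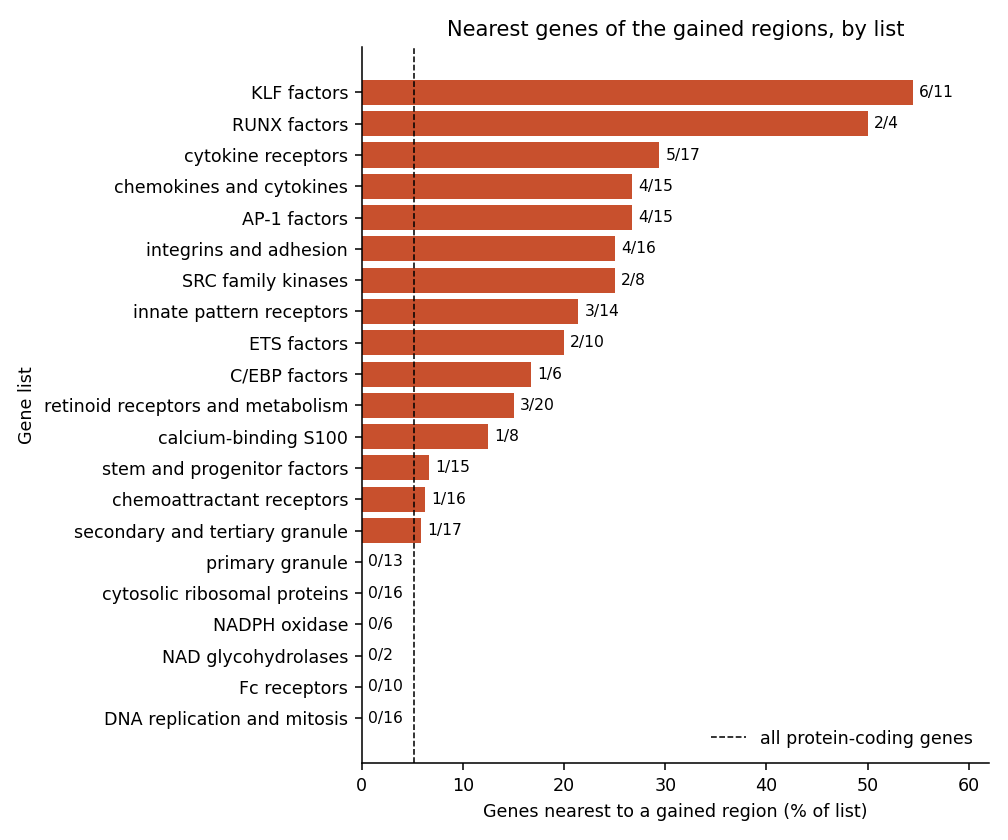
Share of each gene list (bars, percent of the genes found in the annotation, counts at the bars) that was the nearest protein-coding gene of at least 1 gained region, with the share of all protein-coding genes, 5.12%, dashed. KLF factors are at 6 of 11, and primary granule, NADPH oxidase, Fc receptor, NAD glycohydrolase, replication and ribosomal lists are at 0.

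Granule and effector genes were near the share of all genes, 5.12%, or at 0 in short lists. None of 13 primary granule, 6 NADPH oxidase, 10 Fc receptor and 2 NAD glycohydrolase genes was nearest to a gained region. Of 17 secondary and tertiary granule genes OLFM4 was (5.88%), with 3 regions from 13.4 to 529.5 kb of 15517 and 20429 bp in sum. OLFM4 was also nearest to a lost region, and no library had H3K4me3 at its start. The control lists, 16 DNA replication and 16 ribosomal protein genes, were at 0. Kept regions were nearest to 1 primary granule, 2 secondary granule, 1 NADPH oxidase and 1 NAD glycohydrolase gene, with 5.56% of all genes.

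Retinoid genes are of interest because ATRA is the agent. Of 20 listed receptors, carriers and enzymes, CYP26A1, TGM2 and RXRA were nearest to a gained region, and none was nearest to a kept one. With the assignment to genes with H3K4me3 at the 5′ end in both ATRA libraries, 0 of the 20 were nearest to a gained region. CYP26A1, TGM2 and RXRA had no H3K4me3 at that end in any library, and other starts were not examined. CYP26A1, the enzyme that clears retinoic acid, had 6 regions between 40.5 and 121 kb downstream, with 17341 bp in ATRA replicate 1 and 29402 bp in replicate 2. The largest, chr10:94901778-94914776, had 10089 and 11857 bp. Neither mark had a peak at the CYP26A1 start in any library, and no control library had an H3K27ac peak in the mapped window. TGM2, a transglutaminase gene known to be induced by ATRA, had 2 regions 3 and 15.8 kb upstream of 9731 and 10551 bp, and RXRA had 1 region of 601 and 645 bp.

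Whether the change in H3K27ac came with a change in H3K4me3, which the rule did not use, was asked first at the regions themselves. H3K4me3 peaks overlapped 116 (7.88%) and 98 (6.66%) of the gained regions in ATRA replicates 1 and 2, and 80 (5.43%) and 31 (2.11%) in control replicates 1 and 2. Both ATRA values were above both control values, by 3.50 percentage points on average (exact permutation test, two-sided, p = 0.33, the smallest p that 2 against 2 libraries allow). Control replicate 2 had the least H3K4me3 called, and without it the difference was 1.83 points. Over all distal intergenic regions the shares were 9.67%, 8.93%, 10.1% and 5.21% in the same order, and the groups overlapped. Kept regions carried H3K4me3 far more often, in 45.6 to 48.8% with ATRA and in 54.6 and 31.6% in control cells. No library had H3K4me3 at 1314 of the gained regions (89.3%), close to the 86.8% of all distal intergenic and 86.9% of lost regions.

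**Figure D4:**
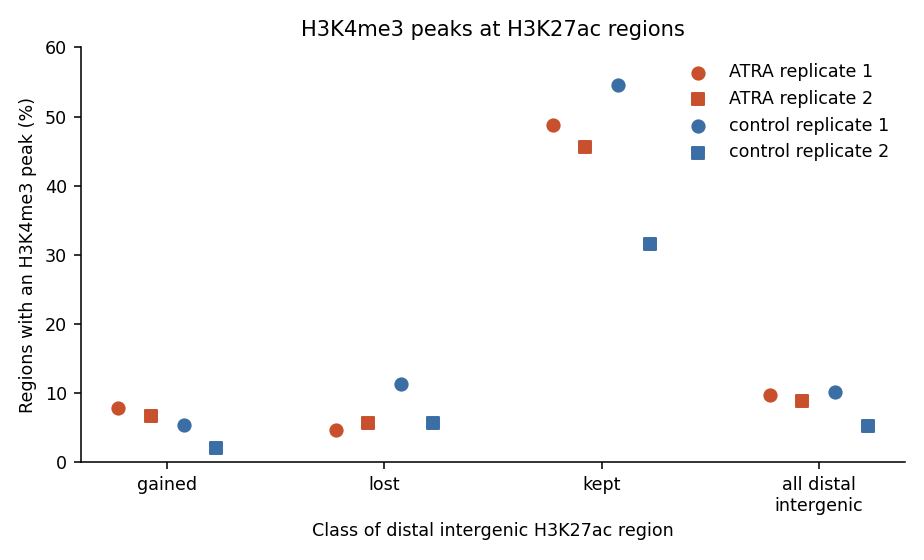
Share of distal intergenic H3K27ac regions that overlapped an H3K4me3 peak (y axis, percent), by class of region (x axis) and by H3K4me3 library (points, ATRA and control, circles for replicate 1 and squares for replicate 2). In gained regions both ATRA points (7.88 and 6.66%) are above both control points (5.43 and 2.11%), and kept regions are between 31.6 and 54.6%.

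H3K4me3 appeared in both ATRA libraries and neither control library at 22 gained regions (1.49%, with 0.803% of all distal intergenic regions), and the reverse was seen at 0. Kept regions showed the same pattern at 30 (2.05%). Ranked by the H3K4me3 stretch that both ATRA libraries shared, the longest of all gained regions was the ARHGAP12 region chr10:32235183-32257875, with 7013 and 9618 bp of H3K4me3 in the ATRA libraries and none in the control libraries. The next 4 in this rank were covered in control cells too. At SAMHD1, which encodes a nucleotide hydrolase of myeloid cells, a region of 14496 bp had 5097 and 4925 bp against 3002 and 2680 bp. Its centre lay 2929 bp upstream of a start of the gene, so the region itself reached over that start. The regions near TBC1D4, PALM and PTPN1 had 3355 and 3343 against 1777 and 687 bp, 2296 and 2214 against 1201 and 1134 bp, and 2199 and 2018 against 546 and 0 bp, respectively. The rank itself favours regions with long H3K4me3 in ATRA libraries.

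The second readout was H3K4me3 at the starts of the nearest genes. Over the 1029 genes, the mean length under peaks in the 4001 bp window was 1990.2 and 1930 bp with ATRA and 1930.3 and 1714.5 bp in control cells, a difference of 137.7 bp (exact permutation test, p = 0.67), and the groups overlapped. For all protein-coding genes the difference was 92.5 bp. H3K4me3 was longer in both ATRA than in both control libraries at 143 of the genes (13.9%, with 11.3% of all protein-coding genes) and shorter at 27 (2.62%, with 2.42%). It was not more frequent where regions were more numerous: 14.3% of the genes with 1 region, 12.1% with 2 and 13.2% with 3 or more were longer. The shares are thus close to those of all genes. Among the genes nearest to a kept region, H3K4me3 was longer at 14.9% and shorter at 3.85%.

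H3K4me3 was present in both ATRA libraries and neither control library at the starts of 10 of the nearest genes (0.972%). The share was 0.627% of the genes nearest to a kept region and 0.299% of all protein-coding genes. Several of the 10 were named here after their values were seen. LILRA5, a leukocyte immunoglobulin-like receptor gene, had 3782 and 3673 bp. CXCR5 and CYSLTR2, a chemokine receptor and a leukotriene receptor gene with 5 regions each, had 2705 and 1971 bp and 2064 and 1878 bp. The other 7 were CCL2, S100A8, ITGAX, CLEC4E, TANK, PTGES and GADD45G. H3K27ac at the gene start comes from the libraries that chose the regions. It was longer in both ATRA libraries at 30.6% of the nearest genes, 25.6% of those nearest to a kept region and 18% of all genes.

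The regions' central 300 bases were searched for the letters of 9 motifs. The PU.1 letters GAGGAAGT were found in 3.74% of gained, 3.76% of lost, 3.35% of kept and 2.82% of all merged regions, and the RUNX letters TGTGGTT in 6.25%, 6.1%, 6.09% and 5.77%. The C/EBP letters TTGCNNAA were found in 16.2%, 17.8%, 13.6% and 14.5% of the same classes, and the AP-1 letters TGANTCA in 10.8%, 9.86%, 10.3% and 8.89%. The interferon regulatory factor letters, GAAA, 2 bases and GAAA, were in 6.73%, 4.23%, 4.59% and 4.69%, the KLF letters GGGTGTGG in 4.21%, 1.88%, 3.63% and 2.97%, and AGGTCA in 22.9%, 22.5%, 20.9% and 19.2%. The GATA letters AGATAA were in 14.6% of gained, 22.5% of lost, 18% of kept and 16.9% of all merged regions. The classes differed little in base composition, with a median GC content of 46.3% in gained and 46% in kept and lost regions. With GC below 40%, GATA letters were in 26.4% of gained, 32.5% of kept and 40.7% of lost regions. With GC of 40 to 50%, which held 738 of the gained regions, the shares were 13.6%, 18.2% and 19.1%. With GC of 50 to 60% they were 9.39%, 9.09% and 10.9%. Above 60%, with 44 gained, 82 kept and 10 lost regions, they were 0%, 2.44% and 20%.

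**Figure D5:**
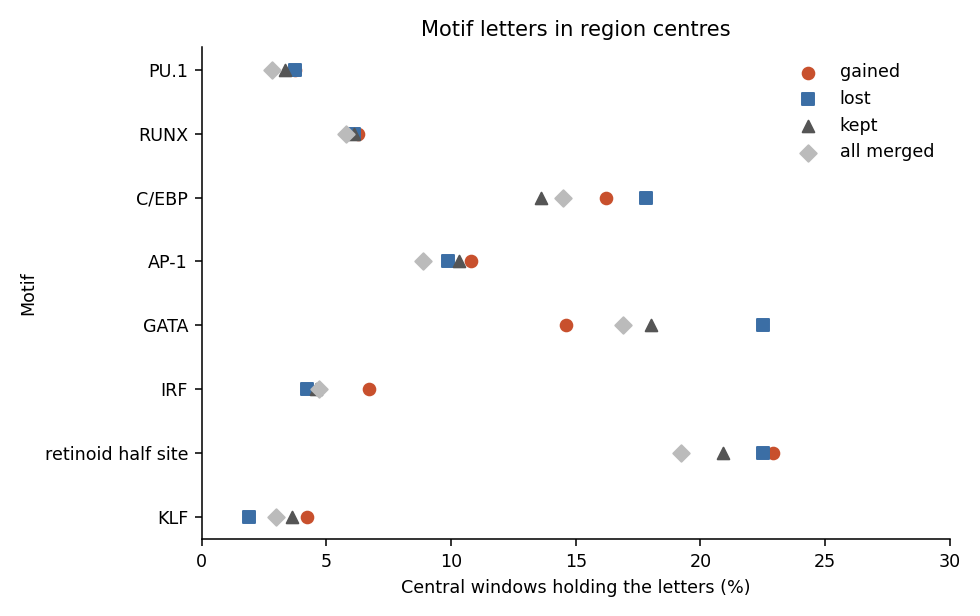
Share of regions whose central 300 bases hold the letters of each motif on either strand (x axis, percent), for gained, lost and kept distal intergenic regions and for all merged regions. Most points lie close together, and the classes are widest apart for GATA, at 14.6% of gained and 22.5% of lost regions.

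These shares depended on the libraries. When the classes were rebuilt from a single ATRA and a single control library, in all 4 combinations, GATA letters were in 14.8 to 19.1% of gained, 15.4 to 19.5% of kept and 13.7 to 23.1% of lost regions. The interferon regulatory factor letters were in 4.22 to 5.35% of gained and 4.63 to 5.45% of kept regions, and the C/EBP letters in 13.3 to 17.1% and 13.5 to 16.3%. The ranges of the classes overlapped, so the order of the classes was not the same in every combination.

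The full retinoid direct repeat, which is AGGTCA, 5 bases and AGGTCA again in the same orientation and so contains the single letters, was rare. It was in the centre of 2 gained regions, of 0 kept and 0 lost regions, and of 3 of all 53141 merged regions. Over the whole length it was found in 5 gained regions and 5 kept ones, which are 12561 kb long in sum against 4271.5 kb. To show the spacing, 4 of the sites are printed in the orientation of the repeat with the paired letters in capitals. They lay near DLG1 (chr3:197062567-197062583), TRERF1 (chr6:42450082-42450098), PLAU (chr10:75658717-75658733) and GPR26 (chr10:125222410-125222426).
DLG1 site: AGGTCActgagAGGTCA
TRERF1 site: AGGTCAaacagAGGTCA
PLAU site: AGGTCAgtggcAGGTCA
GPR26 site: AGGTCAgaggaAGGTCA
PLAU encodes urokinase, a protease of myeloid cells, and its region had 688 and 1056 bp under peaks in ATRA replicates 1 and 2.

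Finally, the regions were placed in topologically associating domains (TADs), the self-interacting units seen by Hi-C, whose internal interactions were listed as changed after ATRA. Positions, in bins of 40 kb, and the direction of the change were taken from that list. In TADs with increased interactions, which cover 30.44 Mb, there were 68 gained regions (2.23 per Mb), 0 lost and 29 kept regions (0.953 per Mb). In TADs with decreased interactions, over 42.8 Mb, there were 1 gained (0.0234 per Mb), 8 lost and 10 kept regions. The rest of the genome held 0.473 gained and 0.480 kept regions per Mb, so kept regions were also denser in the increased TADs, by less than gained ones. No test was made of these densities. Of the 71 increased TADs, 26 held a member. The CADM1 regions made up 9 of the 68, in a TAD with no other protein-coding gene, where H3K27ac covered 97364 and 51201 bp with ATRA and 10765 and 14278 bp in control cells. A TAD with GMDS and MYLK4 held 6, among them the longest region of all.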

How the data were processed

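Peaks of 8 ChIP-seq libraries of HL-60 cells were used as the authors deposited them. Per the labels and the study's methods, adapters were removed with cutadapt, reads were aligned to hg19 with Bowtie, and broad peaks were called in each library with MACS2 (human genome size, no model); versions are not given in the sources used here. Positions were used as deposited. The deposited −log10 q values served only as a stricter threshold of 5, and the deposited fold and −log10 p columns were not used, because they hold impossible values. The length under peaks depends on depth and threshold, and depth is unknown. Peaks on chromosomes 1 to 22 and X were merged at a minimal overlap of 1 bp.

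Starts and gene bodies were from GENCODE release 44 lifted to GRCh37, and sequence was from GRCh37, the files' build. A region was assigned to the protein-coding gene of the nearest transcript start, while H3K4me3 was measured within 2000 bp of the gene's 5′ end. Python 3.11.15 with numpy 2.4.6, scipy 1.17.1, pysam 0.24.0 and samtools 1.23.1 were used. The scripts were tested on simulated data, and all 1200 region classes and 600 planted or empty motif windows were recovered. Library shares were compared with exact permutation tests. TAD positions came from a supplementary list of the study.

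The regions, lists and tests were chosen with earlier results of these data known. Named items were the 10 longest regions, the 5 largest clusters, up to 3 nearest genes per list, the 5 regions longest in H3K4me3, the 3 farthest regions, 3 on each side of the TSS threshold and the 5 genes with most regions; other names were chosen after their values were seen. Alternatives were the q threshold, overlap, TSS distance, gene bodies, merging, length, windows, stitching, pairing by replicate number and leaving out each library. The assignment to marked genes was added after seeing the data. Some items are not reported here.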

Additional observations from a re-analysis of the deposited data

How the results depend on the processing

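With 2 libraries per group, no difference could pass a threshold, and depth behind the peaks is unknown. With −log10 q of at least 5 in every library, 120 gained regions were left, 15% of them in clusters, H3K4me3 was longer at 8.49% of nearest gene starts (9.84% of all genes), and gained minus kept shares were 3.33 points for PU.1 and 15 points for C/EBP letters. The number of kept regions at this q threshold is not given, so these motif differences cannot be read as an enrichment in gained regions. When peaks had to cover 50% of a region, 685 gained regions were left, with 18.5% in clusters. The median distance to a protein-coding TSS was 41401 bp with a TSS limit of 5 kb, 25165 bp outside every gene body and 11353 bp to any TSS. The share in clusters was 24.3% after merging within 1 kb and 44.8% with 50 kb stitching. The share of nearest starts with longer H3K4me3 was 13.1% outside every gene body, 12.8% after merging, and 27% in a window of 5 kb on each side (22.9% of all genes). In the central 1000 bases, gained minus kept shares were 2.71 points for PU.1 and 3.91 points for C/EBP letters.

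Leaving out each library in turn gave 1531 to 7680 regions, a median distance of 30072 to 41470.5 bp, 29.4 to 56.6% in clusters, H3K4me3 differences of 1.69 to 5.16 points at the regions and 29.8 to 245.6 bp at gene starts, and 13.4 to 34.5% of starts longer. It gave gained minus kept shares of -0.523 to 0.790 points for PU.1 and -0.580 to 1.60 points for C/EBP letters, gained minus lost shares of -9.25 to -0.251 points for GATA letters, and a density in increased TADs 3.004 to 5.70 times that in the rest of the genome (4.72 with all libraries). The PU.1 and C/EBP differences thus changed sign. The 34.5% of starts was reached without H3K4me3 control replicate 1, where H3K4me3 was longer at 29.9% of all protein-coding genes.

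Libraries of the same number deviated together (r = 0.436 over distal intergenic regions for H3K27ac and 0.170 over gene starts for H3K4me3), and their peak names carry a common tag, but neither labels nor files say that number or tag marks a shared culture. With the replicate number as a block, a pair of libraries gave 6515 gained regions on average, 56.9% of them in clusters, with gained minus kept shares of -0.733 points for PU.1 and 0.442 points for C/EBP letters. Within number 1 and number 2, H3K4me3 at the regions was 2.45 and 4.55 points higher with ATRA. The cause of these changes was not tested. Of 132 alternative values, 91 were classed as the same, 36 as moved and 5 as reversed. Counts were the same within a set fold range, and H3K4me3 differences when their sign held, whatever their size. Other values were the same within the spread between single-library pairs, whose classes differ from those reported.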
